A study of Mus musculus with 12 samples.

Results

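MHC antigen presentation was followed through 10 genes of the mouse class I and class II pathways in astrocyte- and microglia-enriched hippocampal cells. The genes were chosen by symbol, namely H2-K1, H2-D1, B2m, Tap1 and Nlrc5 for class I and H2-Aa, H2-Ab1, H2-Eb1, Cd74 and Ciita for class II. Each symbol matched 1 Ensembl gene, so that 10 of the 25442 genes counted in both fractions were described, and all 10 passed the filter on low counts in every comparison.

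Class I molecules pair a polymorphic heavy chain with the light chain beta-2 microglobulin and display peptides from the cell interior on nearly all nucleated cells, where cytotoxic T cells read them. Class II molecules pair an alpha with a beta chain, assemble on the invariant chain and display peptides from internalised proteins on professional antigen-presenting cells, where helper T cells read them. In the healthy brain both are kept low, microglia carry little class II, and the macrophages and dendritic cells of the meninges, perivascular spaces and choroid plexus carry more. The transactivators Nlrc5 for class I and Ciita for class II do not bind DNA themselves but are recruited by factors sitting on the promoters, and interferon gamma induces both.

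Poly(A) RNA sequencing was carried out on 12 libraries from male C57Bl6/J mice that received bilateral CA1 injections at 2 months of age and were collected at 4 months. All animals carried an AAV2/9 vector with the GfaABC1D promoter, which is selective for astrocytes, and the vector encoded either murine Adora2a, the adenosine A2A receptor gene (AAV-A2A), or eGFP (AAV-GFP). Hippocampal cells were sorted on magnetic columns, first with anti-ACSA-2 beads for astrocytes and then, from the cells left unbound, with anti-CD11b beads for microglia. Each fraction held 3 AAV-GFP and 3 AAV-A2A libraries. The comparison between vectors asked how presentation genes stood in each cell type after a vector aimed at astrocytes had delivered the receptor. As a model this has limits: the receptor was delivered by a virus rather than induced, no uninjected group was analysed here, CD11b is carried by other myeloid cells besides microglia, and the CD11b libraries carry other numbers than the ACSA-2 libraries, so fractions cannot be paired by animal. The ACSA-2 groups are described as 3 animals each, the number of libraries, while for the CD11b fraction the sources used here do not say whether 1 library is 1 animal, so its p-values measure the spread between libraries.

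Library totals ranged from 33937067 to 49217553 counts in the ACSA-2 fraction and from 36098295 to 53206974 in the CD11b fraction. The delivered gene followed the labels in both fractions: Adora2a stood at 23.2 to 25.6 CPM (counts per 1000000 of the library's total, scaled over the 12 libraries by edgeR's trimmed mean of M values) in the AAV-GFP and 655 to 926 CPM in the AAV-A2A ACSA-2 libraries. In the CD11b fraction Adora2a had 3.76, 4.66 and 8.29 CPM with AAV-GFP and 18.6, 45.2 and 15 CPM with AAV-A2A, so the transcript was higher there too, without overlap, and its part in the CD11b comparison was not tested. Summed astrocyte markers reached 23800 to 37400 CPM in the ACSA-2 and 189 to 507 CPM in the CD11b libraries. Summed microglia markers reached 286 to 512 CPM in the ACSA-2 fraction and 8070 to 66100 CPM in the CD11b fraction. The CD11b libraries were unlike one another, because Ttr, the transthyretin gene that defines choroid plexus epithelium, read 68800, 57600 and 79.4 CPM in the AAV-GFP libraries GFP-2328, GFP-2329 and GFP-2331 and 60.0, 5.26 and 25200 CPM in the AAV-A2A libraries A2A-2343, A2A-2344 and A2A-2347. Libraries GFP-2328, GFP-2329 and A2A-2347 therefore stood apart as rich in choroid plexus RNA and had the lowest microglia marker sums, and results on this fraction are also given without them. In bulk libraries such as these, fewer cells of a type and less RNA per cell cannot be told apart.

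The promoters are shown first, because the letters of the shared regulatory elements are a feature of these genes that the choice did not use. RefSeq sequences (GRCm38.p6, the 250 bases upstream of the start site) were at hand for 6 of the 10 genes, and 4 are printed 5′ to 3′ on the strand of the gene. Capitals mark a CCAAT box or its reverse ATTGG, which NF-Y binds, the core TGACG or its reverse of the X2 box, which CREB-family factors bind, and the interferon-response core GAAANNGAAA.
H2-K1 (chr17:34000348-34000597, minus strand): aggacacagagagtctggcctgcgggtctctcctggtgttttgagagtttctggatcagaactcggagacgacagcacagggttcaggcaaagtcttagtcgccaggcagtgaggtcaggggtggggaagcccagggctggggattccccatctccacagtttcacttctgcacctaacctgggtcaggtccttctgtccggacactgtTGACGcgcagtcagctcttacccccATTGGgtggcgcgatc
B2m (chr2:122147437-122147686, plus strand): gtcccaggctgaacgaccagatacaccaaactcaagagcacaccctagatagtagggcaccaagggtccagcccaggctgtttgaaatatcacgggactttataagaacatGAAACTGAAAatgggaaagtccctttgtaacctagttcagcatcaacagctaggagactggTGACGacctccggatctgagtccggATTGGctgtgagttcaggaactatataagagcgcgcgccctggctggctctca
H2-Aa (chr17:34287824-34288073, minus strand): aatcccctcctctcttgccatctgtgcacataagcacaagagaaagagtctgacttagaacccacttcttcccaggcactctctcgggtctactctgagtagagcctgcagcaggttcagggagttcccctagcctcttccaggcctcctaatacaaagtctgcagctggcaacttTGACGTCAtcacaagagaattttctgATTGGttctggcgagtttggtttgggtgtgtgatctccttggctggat
H2-Eb1 (chr17:34305617-34305866, plus strand): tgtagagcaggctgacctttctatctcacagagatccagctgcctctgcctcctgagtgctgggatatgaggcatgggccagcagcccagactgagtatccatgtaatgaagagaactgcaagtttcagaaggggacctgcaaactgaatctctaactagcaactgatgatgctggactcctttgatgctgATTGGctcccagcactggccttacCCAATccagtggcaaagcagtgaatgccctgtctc

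In 4 of the 6 promoters TGACG was followed by ATTGG at nearly the same distance, as the following stretches show, in which capitals mark both cores.
H2-K1 (chr17:34000359-34000388, minus strand): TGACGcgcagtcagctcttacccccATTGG
H2-D1 (chr17:35262993-35263022, plus strand): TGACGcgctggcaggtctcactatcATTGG
B2m (chr2:122147609-122147638, plus strand): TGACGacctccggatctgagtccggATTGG
H2-Aa (chr17:34287867-34287897, minus strand): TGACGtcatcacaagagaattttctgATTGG
The first bases of the paired cores lay 25 bases apart in the class I genes H2-K1, H2-D1 and B2m and 26 bases apart in the class II gene H2-Aa. Among 32851 RefSeq promoters of the same length, searched on both strands, CCAAT occurred in 33.8%, TGACG in 17.8% and both in 6.12%, while TGACG followed by ATTGG with starts 15 to 35 bases apart occurred in 0.31%. The spacing window was chosen after the sequences had been seen. Tap1 held 1 CCAAT and 1 TGACG but no spaced pair, and H2-Eb1 held 2 CCAAT boxes and no TGACG. The exact letters GAAANNGAAA, found in 2.98% of promoters, occurred in B2m alone among the 6. Variants of the interferon-response core were not searched, so its absence elsewhere is not read as a lack of such an element. A match describes letters only and is not evidence of binding.

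In GRCm38 the MHC itself, on chromosome 17, holds 6 of the genes, H2-K1 (chr17:33996017-34000347, minus strand), Tap1 (chr17:34187553-34197225, plus), H2-Ab1 (chr17:34257689-34269419, plus), H2-Aa (chr17:34282744-34287823, minus), H2-Eb1 (chr17:34305867-34316674, plus) and H2-D1 (chr17:35262730-35267499, plus). The other 4 lie elsewhere, B2m at chr2:122147686-122153083, Nlrc5 at chr8:94434356-94527272, Ciita at chr16:10480059-10528418 and Cd74 at chr18:60803848-60812652, all on the plus strand. Exons shared with a neighbouring gene made up 3.9% of the exon length of Tap1 (with Psmb9), 3.5% of Ciita (with Dexi), 0.9% of Nlrc5 and 0.7% of Cd74, and none in the rest. H2-K1 and H2-D1 resemble each other and the other class I heavy chains in sequence, so reads that matched several of them were left out by the unique-alignment rule and their counts are uncertain to that extent.

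Per length of transcript, expressed as CPM per kilobase of exon, the light chain gene led in both fractions and the transactivators came last. In the ACSA-2 fraction B2m stood at 337 ± 40.3 CPM per kilobase (SD, n = 6), followed by H2-D1 at 148 ± 30.8, H2-K1 at 119 ± 14.9 and Cd74 at 73.3 ± 29. The remaining class II chains followed with H2-Ab1 at 27.3 ± 9.61, H2-Eb1 at 16.5 ± 6.05 and H2-Aa at 10.5 ± 4.65 CPM per kilobase, and the peptide transporter Tap1 with 3.08 ± 0.759, Ciita with 0.37 ± 0.23 and Nlrc5 with 0.109 ± 0.0821. Between neighbours in that order, the ranges over 6 libraries did not overlap for B2m and H2-D1, Cd74 and H2-Ab1, H2-Aa and Tap1, and Tap1 and Ciita. The ranges of the other neighbours overlapped, yet within a library H2-K1 exceeded Cd74, H2-Ab1 exceeded H2-Eb1 and H2-Eb1 exceeded H2-Aa in 6 of 6 libraries, while H2-D1 exceeded H2-K1 and Ciita exceeded Nlrc5 in 5 of 6.

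In the CD11b fraction B2m was again first at 1300 ± 818 CPM per kilobase (SD, n = 6), ahead of H2-D1 at 475 ± 256, Cd74 at 409 ± 288 and H2-K1 at 228 ± 103. H2-Ab1 at 118 ± 75.4, H2-Eb1 at 79.8 ± 49 and H2-Aa at 46.6 ± 29.4 CPM per kilobase kept the order they had in the ACSA-2 fraction, followed by Tap1 at 14.5 ± 7.98, Nlrc5 at 0.814 ± 0.52 and Ciita at 0.558 ± 0.422. Only the ranges of Tap1 and Nlrc5 stood clear of each other here, as libraries of this fraction varied widely, but B2m exceeded H2-D1, H2-Ab1 exceeded H2-Eb1 and H2-Eb1 exceeded H2-Aa in 6 of 6 libraries.

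**Figure D1:**
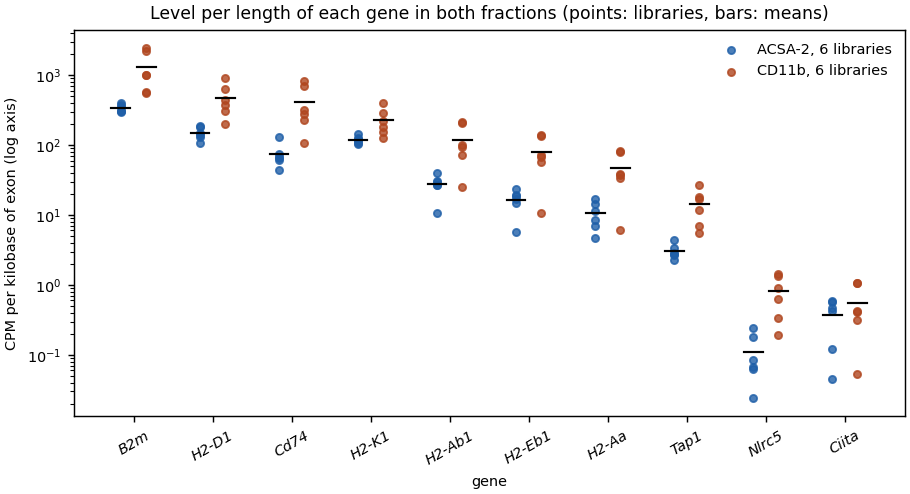
Levels of the 10 genes on a log axis, in CPM per kilobase of exon, with 1 point per library in the ACSA-2 and CD11b fractions. B2m is the highest gene in both fractions, and Nlrc5 and Ciita lie lowest, with means of 0.109 to 0.814 CPM per kilobase.

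Among the class I chains, H2-K1, the heavy chain of the K locus, had 357, 334 and 425 CPM in the AAV-GFP libraries of the ACSA-2 fraction, in the order GFP-303, GFP-306, GFP-307, and 302, 364 and 317 CPM in the AAV-A2A libraries (A2A-309, A2A-310 and A2A-313). In the CD11b fraction its values were 363, 528 and 832 CPM with AAV-GFP (GFP-2328, GFP-2329 and GFP-2331) and 1190, 655 and 448 CPM with AAV-A2A (A2A-2343, A2A-2344 and A2A-2347), an order of libraries kept below. The vector groups overlapped in both fractions, and in CD11b cells the lowest libraries of each group were those rich in choroid plexus RNA.

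H2-D1, the heavy chain of the D locus, had 274, 355 and 477 CPM against 377, 473 and 340 CPM in the ACSA-2 fraction, and 514, 947 and 1620 CPM against 2350, 1130 and 798 CPM in the CD11b fraction. B2m, which encodes the light chain common to class I molecules, had 261, 258 and 338 CPM against 301, 321 and 263 CPM in ACSA-2 libraries and 498, 872 and 1880 CPM against 2110, 860 and 478 CPM in CD11b libraries. These genes varied from library to library much as H2-K1 did, with GFP-2331 and A2A-2343 high and GFP-2328 and A2A-2347 low. Group means of B2m in the CD11b fraction were 1080 ± 714 and 1150 ± 851 CPM (SD, n = 3), so the spread within a group was far wider than the distance between groups.

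Tap1 encodes a subunit of the transporter that carries cytosolic peptides to class I molecules, and Nlrc5 the class I transactivator. Tap1 stood at 15.6, 15.1 and 24.4 CPM with AAV-GFP and 18.6, 12.6 and 14.8 CPM with AAV-A2A in the ACSA-2 fraction, and at 30.3, 38.6 and 93.5 CPM against 99.8, 148 and 65.4 CPM in the CD11b fraction. All but 1 of the CD11b values with AAV-A2A exceeded those with AAV-GFP, and the exception, A2A-2347, was below GFP-2331. Nlrc5 was scarce, with 0.204, 2.03 and 1.52 CPM against 0.531, 0.567 and 0.716 CPM in the ACSA-2 fraction, where its counts ran from 8 to 68, and 1.65, 5.42 and 7.61 CPM against 2.91, 11.6 and 12.3 CPM in the CD11b fraction. The vector groups of both genes overlapped in both fractions.

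**Figure D2:**
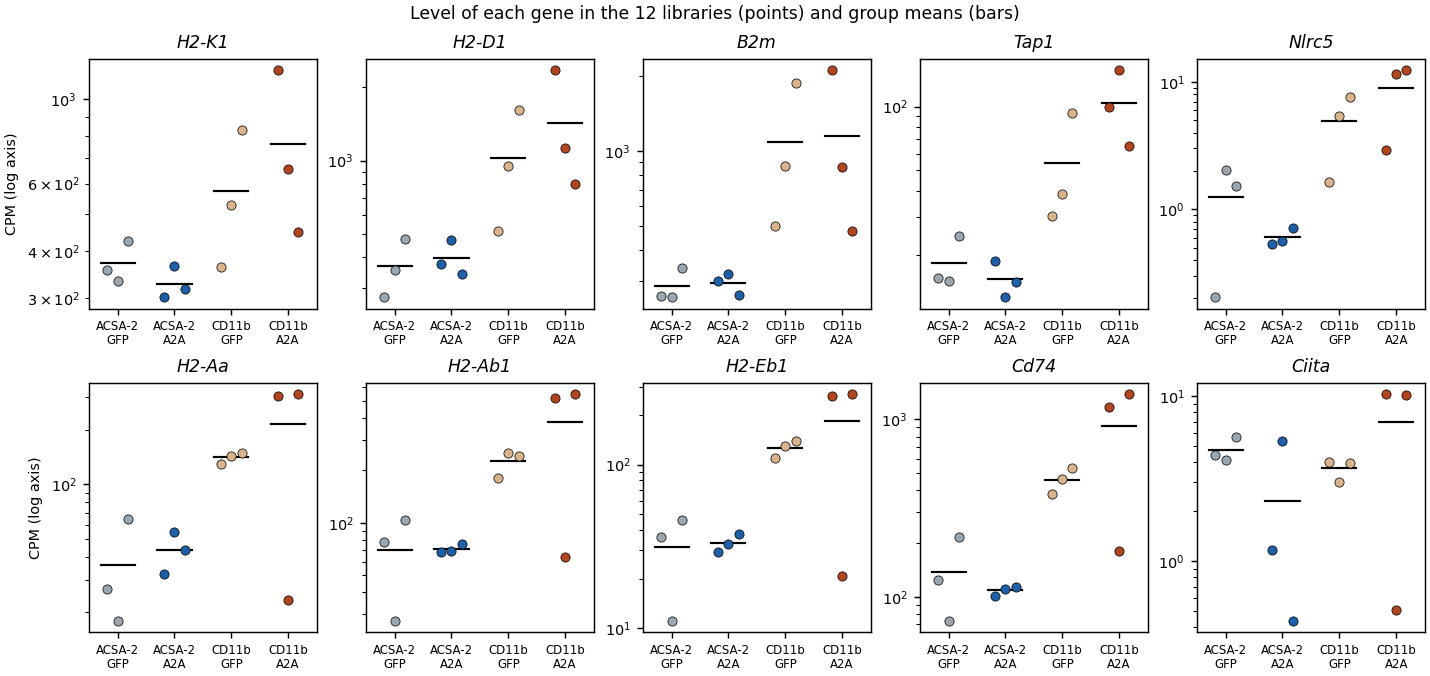
CPM of each of the 10 genes in each of the 12 libraries on log axes, with AAV-GFP and AAV-A2A libraries apart within each fraction. In none of the 10 genes do the AAV-A2A libraries of a fraction lie wholly above or below its AAV-GFP libraries, and A2A-2344 is the lowest CD11b library for the class II chains.

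The class II chains form the peptide-binding heterodimers: H2-Aa and H2-Ab1 encode the alpha and beta chains of I-A, and H2-Eb1 the beta chain of I-E, whose alpha partner C57BL/6 mice do not make. H2-Aa had 26.7, 17.9 and 64.6 CPM against 32.4, 54.9 and 43.6 CPM in the ACSA-2 fraction, and 130, 143 and 149 CPM against 304, 23.4 and 313 CPM in the CD11b fraction. H2-Ab1 had 77.5, 27.4 and 104 CPM against 67.8, 68.8 and 75.4 CPM, then 182, 253 and 241 CPM against 522, 63.9 and 550 CPM. H2-Eb1 followed with 36.3, 11.1 and 46.1 CPM against 29.2, 32.9 and 37.4 CPM, then 110, 130 and 139 CPM against 261, 20.8 and 270 CPM. In CD11b cells the AAV-A2A libraries lay on both sides of the AAV-GFP libraries, A2A-2343 and A2A-2347 above all 3 of them and A2A-2344 below.

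Cd74, the invariant chain that guides class II assembly and blocks the groove until the endosome, had 124, 73.2 and 216 CPM against 101, 111 and 114 CPM in the ACSA-2 fraction, and 382, 462 and 529 CPM against 1180, 180 and 1390 CPM in the CD11b fraction. The pattern was that of the class II chains, with A2A-2344 again below every AAV-GFP library. Ciita, the class II transactivator, had 4.41, 4.1 and 5.66 CPM against 1.17, 5.36 and 0.434 CPM in the ACSA-2 fraction, and 3.99, 3.02 and 3.91 CPM against 10.3, 0.503 and 10.2 CPM in the CD11b fraction. It followed the same split in CD11b cells, and in the ACSA-2 fraction A2A-309 and A2A-313 were below the AAV-GFP libraries while A2A-310 lay among them.

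Summed over H2-Aa, H2-Ab1, H2-Eb1 and Cd74, the CD11b libraries gave 803, 988 and 1060 CPM with AAV-GFP and 2260, 288 and 2530 CPM with AAV-A2A. Markers of other cells did not follow this sum in a single pattern. Border macrophage markers summed to 136, 190 and 679 CPM with AAV-GFP and to 515, 975 and 762 CPM with AAV-A2A, but Stab1 carried much of this sum. The other 9 markers of the list summed to 64.6, 62.6 and 277 CPM and to 275, 185 and 269 CPM, so A2A-2344 was the lowest AAV-A2A library for these as for class II. Choroid plexus markers were lowest in A2A-2344 as well, at 9.7 CPM, against 74.1 CPM in A2A-2343 and 29700 CPM in A2A-2347, which had nearly the same class II sum. Dendritic cell markers summed to 34.1 to 138 CPM over the 6 CD11b libraries, with Cd209a the highest at a mean of 23.8 CPM. The part of these cells in the class II values was not tested.

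**Figure D3:**
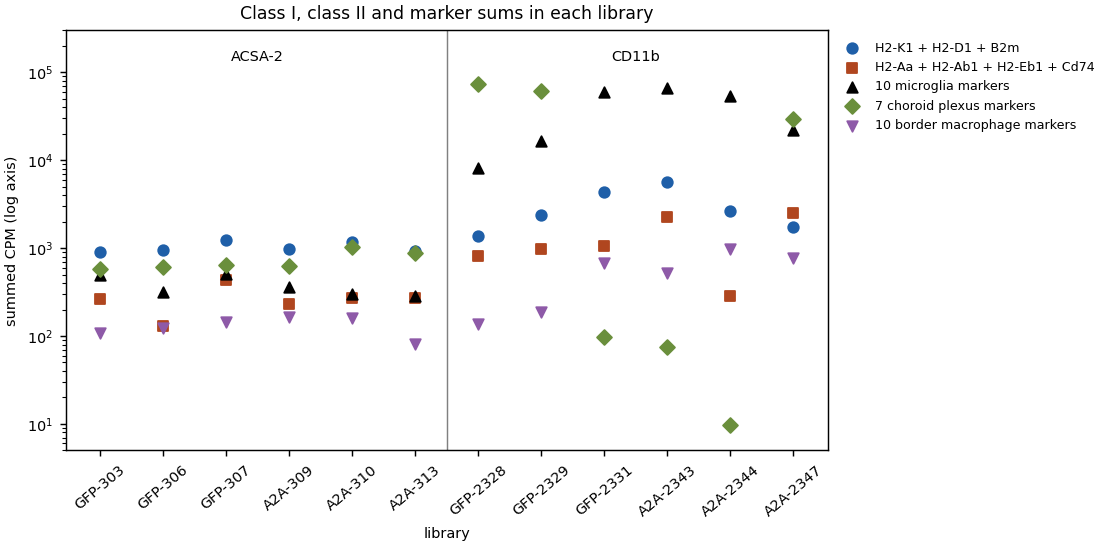
Summed CPM per library, on log axes, of the class I chains, the class II chains with Cd74, and marker lists of other cell types. In the CD11b fraction the class II sum spans 288 to 2530 CPM with AAV-A2A and 803 to 1060 CPM with AAV-GFP, while choroid plexus markers span 9.7 to 73300 CPM.

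Between AAV-A2A and AAV-GFP animals, 0 of the 10 genes passed the test in the ACSA-2 fraction (edgeR's quasi-likelihood test, Benjamini-Hochberg adjusted p under 0.05 and absolute log2 fold change over 0.32). Over all genes, 553 of 16451 tested passed, or 3.36%, so that a list of this length would hold few in any case. At an unadjusted p under 0.05 there were also 0 of the 10 genes by edgeR, and DESeq2 and limma-voom each called 0. The median log2 fold change of the 10 genes was -0.05, beside 0.02 over all genes. None of the 10 separated the vector groups fully, where 19.4% of all genes did.

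The class I chains were the most tightly bounded. H2-K1 had a log2 fold change of -0.15 with a 95% interval from -0.535 to 0.227, H2-D1 one of 0.13 (-0.378 to 0.646) and B2m one of 0.07 (-0.322 to 0.465). For the class II chains the intervals were wider, from -0.672 to 1.255 around 0.29 for H2-Aa, from -0.814 to 0.923 around 0.06 for H2-Ab1, from -0.841 to 1.089 around 0.12 for H2-Eb1 and from -1.045 to 0.425 around -0.31 for Cd74. Tap1 had a log2 fold change of -0.23 (-0.914 to 0.445). The transactivators, low in counts, could not be bounded closely, at -1.02 (-3.379 to 1.343) for Nlrc5 and -1.0 (-2.851 to 0.855) for Ciita. Adjusted p-values of the 10 genes in edgeR's test lay between 0.727 and 0.983.

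In the CD11b fraction the log2 fold changes of the 10 genes between AAV-A2A and AAV-GFP animals were all above zero, from 0.05 for B2m to 1.02 for Cd74, yet 0 passed edgeR's test, and 0 had an unadjusted p under 0.05. Of 16949 genes tested in this fraction 0 passed as well (0.0%), 2704 had an unadjusted p under 0.05, DESeq2 called 798 and limma-voom 0, and neither of the latter called any of the 10. The median over the 10 genes was 0.68, beside -0.05 over all genes. None of them separated the vector groups fully, where 22.4% of all genes did. The signs are not 10 separate observations, because the chains varied together from library to library.

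Tap1 had the smallest p of the 10 in the CD11b fraction, with a log2 fold change of 0.92 ± 0.486 (SE) and a 95% interval from -0.236 to 2.079 (edgeR adjusted p = 0.391). Cd74 had 1.02 (-0.759 to 2.793), H2-Ab1 0.76 (-1.048 to 2.561), H2-Aa 0.61 (-1.393 to 2.607), H2-Eb1 0.55 (-1.431 to 2.53) and Ciita 0.95 (-1.374 to 3.272). Among the class I genes, Nlrc5 had 0.89 (-0.929 to 2.709), H2-D1 0.44 (-0.981 to 1.87), H2-K1 0.38 (-0.818 to 1.569) and B2m 0.05 (-1.625 to 1.722). Intervals of this width leave room for a change of either direction in every gene.

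Single libraries weighed on these values. Without A2A-2344 the 10 log2 fold changes ran from 0.24 to 1.5 and 5 genes had an unadjusted p under 0.05, though 0 passed edgeR's test after adjustment. When the 3 libraries rich in choroid plexus RNA were left out, a choice made after seeing the data, AAV-GFP kept 1 CD11b library, whose spread is taken as that of the others. The log2 fold changes then ran from -0.36 to 0.44 with a median of 0.12, and B2m, Nlrc5 and H2-Eb1 were below zero. B2m was also below zero under upper quartile scaling (-0.07) and where 10 counts were asked of every library (-0.01), so its direction depends on the scaling and the filter.

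**Figure D4:**
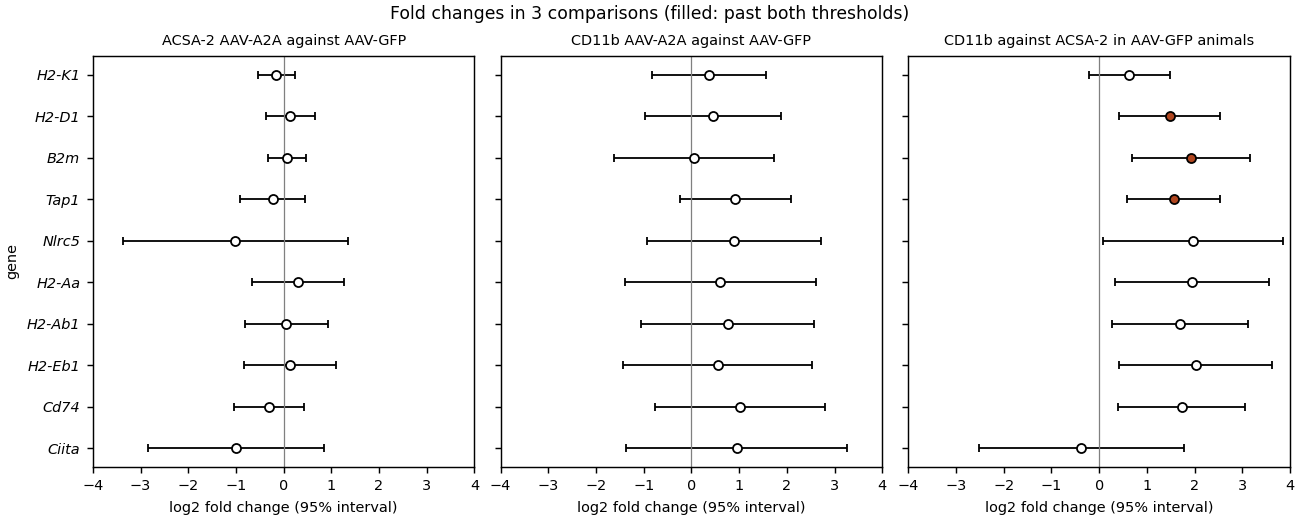
Log2 fold change of AAV-A2A over AAV-GFP for each of the 10 genes in the ACSA-2 and CD11b fractions, with 95% intervals from edgeR. A further panel gives CD11b over ACSA-2 in AAV-GFP animals. Between vectors every interval crosses zero, and those of the CD11b fraction are wider for every gene but Nlrc5. Between fractions only the intervals of H2-K1 and Ciita cross zero, and filled points mark H2-D1, B2m and Tap1, which passed the test.

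The vector effect was also compared between fractions by an interaction contrast over all 12 libraries. The 10 differences, CD11b minus ACSA-2, ran from 0.04 for B2m to 1.97 for Ciita on the log2 scale with a median of 0.66, beside -0.1 over all genes. By edgeR 0 of the 10 passed and 0 had an unadjusted p under 0.05, and DESeq2 and limma-voom called 0, where edgeR called 75 of all 18602 genes tested (0.403%). Tap1 came closest, at 1.21 (edgeR adjusted p = 0.305), and passed only when GFP-2331 was left out. An effect of the vector on these genes that differed between fractions was thus not detected with 3 libraries per group.

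Against the vector comparisons, the contrast between fractions was large. In AAV-GFP animals 9 of the 10 genes had higher levels in the CD11b than in the ACSA-2 fraction, and 3 passed edgeR's test over the 12 libraries, B2m, Tap1 and H2-D1. Over all genes 26.7% passed in either direction and 14.4% passed as higher in CD11b cells, and nothing particular to these genes is read from 3 of 10. The median log2 difference of the 10 genes was 1.72, beside 0.11 over all genes. In 7 genes every CD11b library of the AAV-GFP group exceeded every ACSA-2 library, in Ciita every one was below, and in H2-K1 and Nlrc5 they overlapped, where 48.1% of all genes did not overlap.

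Among the class I genes B2m stood at 286 ± 45.6 CPM in ACSA-2 and 1080 ± 714 CPM in CD11b libraries (SD, n = 3), a log2 difference of 1.92 ± 0.562 (SE, edgeR adjusted p = 0.0266). Tap1 was at 18.4 ± 5.19 against 54.1 ± 34.3 CPM, a log2 difference of 1.56 ± 0.444 (edgeR adjusted p = 0.0235), and H2-D1 at 368 ± 102 against 1030 ± 555 CPM, one of 1.48 ± 0.484 (edgeR adjusted p = 0.0422). H2-K1, at 372 ± 47.2 against 574 ± 238 CPM, had a log2 difference of 0.63 with a 95% interval from -0.223 to 1.48 and did not pass. The ratio of the heavy chains in CPM, not corrected for length, was 0.94 ± 0.192 for H2-K1 over H2-D1 in ACSA-2 and 0.571 ± 0.0719 in CD11b libraries (SD, n = 6). Nlrc5, at 1.25 ± 0.944 against 4.89 ± 3.02 CPM, had a log2 difference of 1.96 (0.079 to 3.85, edgeR adjusted p = 0.112).

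All 4 class II chain genes lay just short of the threshold in the fit over 12 libraries, though DESeq2 called them, and so did edgeR in a fit on the 6 AAV-GFP libraries alone (adjusted p = 0.0273 for H2-Aa, 0.042 for H2-Ab1, 0.0284 for H2-Eb1 and 0.0267 for Cd74). Cd74 was at 138 ± 72.4 against 457 ± 73.5 CPM, a log2 difference of 1.73 with a 95% interval from 0.404 to 3.063 (edgeR adjusted p = 0.0543), and H2-Eb1 at 31.1 ± 18.1 against 126 ± 15.2 CPM, one of 2.02 (0.411 to 3.63, edgeR adjusted p = 0.0623). H2-Aa differed by 1.95 (0.332 to 3.567, edgeR adjusted p = 0.0715) and H2-Ab1 by 1.70 (0.266 to 3.128, edgeR adjusted p = 0.0753), with no overlap of the 3 libraries on either side. Ciita went the other way, at 4.72 ± 0.823 CPM in ACSA-2 and 3.64 ± 0.54 CPM in CD11b libraries, with a log2 difference of -0.38 (-2.525 to 1.775) that did not pass. Ciita is thus the 1 gene of the 10 whose mean was higher in the ACSA-2 fraction of control animals.

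How many of the 10 genes passed between fractions depended on the tool and on single libraries. DESeq2 called 8 and limma-voom 4. With the 6 AAV-GFP libraries alone 5 passed, B2m and the 4 class II chain genes, while Tap1 and H2-D1 did not (edgeR adjusted p = 0.0547 and 0.0591). Leaving out GFP-303, GFP-306 or GFP-2331 left 0 of the 10 called, and the log2 difference of B2m without GFP-2331 was 1.26 (edgeR adjusted p = 0.0972), while leaving out GFP-307 gave 5 and leaving out A2A-2344, which is in neither group of the contrast but alters the shared spread and the genes tested, gave 7. Without A2A-309, A2A-310, A2A-313 or GFP-2329, 2 were called and H2-D1 was not among them. Without the 3 libraries rich in choroid plexus RNA, which leaves 1 AAV-GFP library in the CD11b fraction, H2-K1, H2-D1, B2m and Tap1 passed with log2 differences of 1.19, 2.16, 2.74 and 2.37 (edgeR adjusted p = 0.0267, 0.00305, 0.000606 and 0.000927), whereas the class II chains, at 1.82 to 2.19, did not.

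The same contrast in the AAV-A2A animals rests on other libraries, though on the same estimate of spread. There 9 of the 10 genes passed edgeR's test as higher in CD11b cells, where 25.0% of all genes did, with Ciita the exception at 1.59 (edgeR adjusted p = 0.213). Nlrc5 showed the widest difference at 3.88, followed by Cd74 at 3.08, Tap1 at 2.77, H2-Eb1 at 2.47 and H2-Ab1 at 2.42 (edgeR adjusted p = 0.00547, 0.00232, 0.000605, 0.0181 and 0.0117). H2-K1, at 1.22, also passed (edgeR adjusted p = 0.0244). That more genes pass here than with AAV-GFP does not show that the contrast differed, since the interaction above called none.

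**Figure D5:**
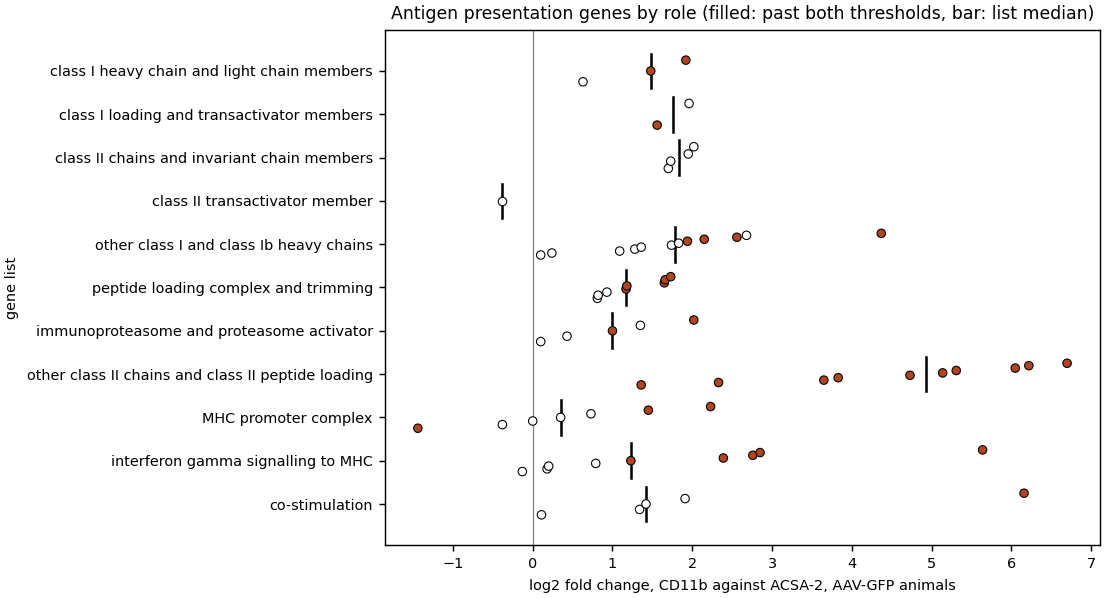
Log2 difference of CD11b over ACSA-2 libraries in AAV-GFP animals for the 10 genes and the other listed genes of the pathway, grouped by role. The 10 other class II chain and loading genes tested lie at 1.36 to 6.7, and the 10 genes described here between -0.38 and 2.02. All of the former are called higher, where 14.4% of all genes are. H2-Oa among them did not pass the filter on low counts in the ACSA-2 libraries alone, so their count is not read as particular to the list.

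Set beside the markers of the sorted cells, the contrast of the presentation genes between fractions was modest. Taken as means over 6 libraries, the class I chains summed to 2.94-fold and the class II chains with Cd74 to 4.98-fold more CPM in CD11b than in ACSA-2 libraries, whereas microglia markers differed by 99.3-fold. Relative to the microglia marker sum of the same library, the class II sum came to 41.0 to 94.5% in the ACSA-2 fraction and 0.534 to 11.4% in the CD11b fraction, with no overlap. The class I sum came to 180 to 385% and to 4.92 to 17.0%. Sorting on CD11b itself sets this divisor apart between fractions, so the lack of overlap is not read as a result. Endothelial markers summed to 531 to 1110 CPM in the ACSA-2 and 512 to 2240 CPM in the CD11b libraries, a difference of 1.3-fold between the means. Border macrophage markers differed by 4.18-fold, or 1.7-fold without Stab1, dendritic cell markers by 3.45-fold, B cell markers by 14.8-fold and monocyte or neutrophil markers by 139-fold between fractions.

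Markers of cells that carry class II were present at low levels in the ACSA-2 libraries: border macrophage markers summed to 80.5 to 164 CPM, led by Cbr2 at a mean of 22.1 CPM, and dendritic cell markers to 11.9 to 35.6 CPM, led by Cd209a at 12.6 CPM. Of 8 dendritic cell markers 5 averaged below 1 CPM (Flt3, Clec9a, Ccr7, Itgax and Itgae), as did all 5 T or NK cell markers and all 7 monocyte or neutrophil markers. Relative to the border macrophage sum, the class II sum was 105 to 335% in the ACSA-2 fraction and 29.5 to 591% in the CD11b fraction, which overlapped. The part of such cells in the class II signal of the ACSA-2 fraction was not tested.

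The wider pathway, listed by role, was weighed in the same fits. Between vectors, 0 of 53 other genes passed edgeR's test in the ACSA-2 fraction and 0 of 56 in the CD11b fraction, with median log2 fold changes of 0.01 and 0.42. In each list the gene with the highest level per length is given. In ACSA-2 cells H2-T23, a non-classical heavy chain, had a log2 fold change of -0.26 ± 0.324 (SE), Pdia3, the thiol isomerase of the loading complex, -0.43 ± 0.219, Psmb10, an immunoproteasome subunit, 0.46 ± 0.206, and the lysosomal protease Ctsl 0.13 ± 0.165. Rfxap of the promoter complex had 0.14 ± 0.249, the interferon gamma receptor chain Ifngr1 0.09 ± 0.182 and the co-stimulatory ligand Icosl 0.01 ± 0.21.

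In CD11b cells the corresponding log2 fold changes were 0.21 ± 0.583 (SE) for H2-T23, -0.37 ± 0.456 for Pdia3, -0.19 ± 0.654 for Psmb10, 0.42 ± 0.884 for the lysosomal protease Ctss, -0.54 ± 0.369 for Rfxap, 0.83 ± 0.769 for Ifngr1 and 0.57 ± 0.774 for the co-stimulatory ligand Cd86. None of these passed the test.

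Between fractions in AAV-GFP animals, 29 of the 56 other genes tested passed as higher in CD11b cells and 1 as lower. Over all genes 14.4% passed as higher. Of 11 listed genes of class II loading 10 were tested and 10 passed, among them 1, H2-Oa, that did not pass the filter on low counts in the ACSA-2 libraries alone, so neither the count nor the median log2 difference of 4.93 is read as particular to the list. Ctss, the protease that trims the invariant chain, was at 59.4 to 110 CPM in the ACSA-2 and 1820 to 15100 CPM in the CD11b libraries and differed by 6.22 ± 0.831 (SE, edgeR adjusted p = 0.00038). H2-DMa, a chain of the peptide exchange factor, had 3.55, 1.65 and 18.7 CPM in the AAV-GFP libraries of the ACSA-2 and 60.8, 134 and 439 CPM in those of the CD11b fraction, a difference of 4.73 ± 1.01 (edgeR adjusted p = 0.00583). The others were H2-DMb1 (3.83), H2-DMb2 (5.31), H2-Oa (6.70), H2-Ob (5.14), Lgmn (3.65), Ifi30 (2.33), Ctsl (1.36) and March1 (6.05), a ligase that removes class II from the cell surface. H2-DMb2 and H2-Oa were at 0.0 CPM in some ACSA-2 libraries, so their fitted log2 differences depend on the prior count. Ctsl did not pass in 6 and H2-DMb2 in 3 of the 12 fits that each left out 1 library.

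For class I, 4 of 12 other genes tested from the list of heavy chains passed, where 14.4% of all genes passed as higher. Their log2 differences were 4.37 for H2-T24, 2.56 for H2-Q6, 2.15 for H2-T23 and 1.94 for H2-M3, with a list median of 1.79. These genes have close copies, so their counts are uncertain. In the ACSA-2 libraries alone 10 genes of this list passed the filter on low counts, so neither the count nor the median is read as particular to the list. The list also held H2-Ke6, which is not a heavy chain. The loading complex contributed 5 of 8, Tapbp at 1.73, Calr at 1.66, Tapbpl at 1.65, Pdia3 at 1.18 and Canx at 1.17, and the immunoproteasome 2 of 5, Psmb8 at 2.02 and Psme1 at 1.0. With 1 library left out, Psme1 did not pass in 8 and H2-M3 in 7 of 12 fits. Tapbp, the tapasin that bridges the transporter to class I, ran from 95.4 to 143 CPM in the ACSA-2 and from 228 to 838 CPM in the CD11b libraries. Its difference of 1.73 ± 0.432 (SE, edgeR adjusted p = 0.0125) was near that of Tap1.

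Upstream of both classes, 5 of 9 genes of interferon gamma signalling passed as higher in CD11b cells, where 14.4% of all genes did. Their log2 differences were 5.64 for Irf8, 2.85 for Irf1, 2.76 for Ifngr1, 2.39 for Ifngr2 and 1.23 for Irf2. Irf1, a transcription factor that interferon gamma induces, had 18.4, 23.2 and 34.2 CPM in the ACSA-2 and 125, 204 and 217 CPM in the CD11b libraries of AAV-GFP animals (2.85 ± 0.375, SE, edgeR adjusted p = 0.000343). In the promoter complex Nfya at 2.23, which did not pass in 8 of 12 fits with 1 library left out, and Creb1 at 1.45 passed as higher, while Rfxank, a subunit of the RFX factor, passed as lower at -1.44 ± 0.32 (edgeR adjusted p = 0.00687), with 42.2, 27.2 and 45.0 CPM in ACSA-2 and 11.1, 12.6 and 18.5 CPM in CD11b libraries. Of the 5 co-stimulatory genes Cd86 passed, at 6.16.

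Across libraries the genes fell into sets that varied together. Deviations of log2 CPM from the group means were correlated over the 12 libraries, as a description only, since these values share their library, its depth and its mix of cells. The 6 pairs among H2-Aa, H2-Ab1, H2-Eb1 and Cd74 gave Pearson r of 0.95 to 1.0, and the 3 pairs among H2-K1, H2-D1 and B2m gave 0.96 to 0.99. In the ACSA-2 libraries alone the class II pairs gave 0.8 to 0.99 and the class I pairs 0.76 to 0.88. Both gave 0.99 to 1.0 in the CD11b libraries alone. Between the sets the 12 pairs gave only 0.16 to 0.25 over the 12 libraries, and r between the sets was not computed for each fraction alone. In the CD11b AAV-GFP libraries the class I sums (1370, 2350 and 4330 CPM) and class II sums (803, 988 and 1060 CPM) had the same order. In the other groups the order differed, as with CD11b AAV-A2A (5640, 2650 and 1720 CPM against 2260, 288 and 2530 CPM). Within the class II chains the mean ratios of CPM were close between fractions, with H2-Eb1 over H2-Ab1 at 0.454 ± 0.0337 in ACSA-2 and 0.502 ± 0.0971 in CD11b libraries, and H2-Aa over H2-Ab1 at 0.579 ± 0.155 and 0.569 ± 0.113 (ratios of CPM not corrected for length, SD, n = 6). Cd74 over H2-Ab1 was 1.83 ± 0.467 and 2.29 ± 0.346. Single libraries varied more, from 0.345 to 0.797 for H2-Aa over H2-Ab1 in ACSA-2 libraries. For H2-Eb1 over H2-Ab1 the CD11b libraries ran from 0.325 to 0.601.

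The transactivators were set beside their targets over the libraries of both fractions together. Ciita gave r of 0.72 to 0.83 with the class II chains, Nlrc5 gave -0.08 to 0.12 with the class I chains, and Tap1 gave 0.64 to 0.68 with the latter. In the ACSA-2 fraction the AAV-GFP libraries had the same order for Ciita and the class II sum. There A2A-313 had the lowest Ciita, 0.434 CPM, beside the highest class II sum of the AAV-A2A libraries, 270 CPM. Nlrc5 had 8 to 68 counts in that fraction, so its r is uncertain. A difference between the transactivators was not tested. The mean of the class I chains ran with the microglia and the monocyte or neutrophil marker means (r = 0.88 for each). It also ran with those of dendritic cells (r = 0.83), B cells (r = 0.79) and border macrophages (r = 0.68), and against the choroid plexus mean (r = -0.75). The mean of the class II chains had r = -0.01 with microglia, 0.38 with monocyte or neutrophil, 0.52 with dendritic cell, 0.03 with B cell and -0.79 with astrocyte markers. It had r = 0.25 with border macrophage and 0.4 with choroid plexus markers.

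Among 11106 genes at 5 CPM or more in the CD11b libraries, those whose deviations were most like the class I mean were Nagk (r = 0.994), Psmb8 (0.987), Ctss (0.982), Gtf3a (0.977) and Ostf1 (0.974), over 12 libraries. For the class II mean they were 1700037H04Rik (r = 0.936), Ackr1 (0.909), Fkbpl (0.885), Ptger4 (0.881) and R3hcc1 (0.871). Of the genes searched, none outside the list reached 0.95, the lowest r between single class II chains. An r with a mean and an r between single genes are unlike measures, and genes below 5 CPM were not searched.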

How the data were processed

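Gene counts were analysed as deposited: raw counts per gene, made by the authors from SMART-Seq v4 and Nextera XT single-end libraries by trimming with cutadapt 1.10, alignment to mm10 with STAR 2.5.3 and counting of uniquely aligned, unambiguous reads with HTSeq 0.6.1p1 in union mode. Strand settings were not given in the sources used here, so antisense neighbours cannot be told apart, and no molecular identifiers were used, so precision covers counting and library spread only. The ACSA-2 and CD11b counts came in separate tables, so whatever differs between the tables cannot be told apart from the fraction, and 25 unnamed empty columns were not used. Library totals were 33937067 to 53206974 counts.

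Counts were tested in R 4.3.3 with edgeR 4.0.16 (filterByExpr, trimmed mean of M values, robust quasi-likelihood test) over all genes of each fraction, or over all 12 libraries in 4 groups for the contrast between fractions and the interaction, with Benjamini-Hochberg adjustment. Calls needed adjusted p under 0.05 and absolute log2 fold change over 0.32, the thresholds of the study's methods. The scripts were tested on simulated data. Lengths are exon unions of the GENCODE annotation of GRCm38, and log2 values for correlations added 0.5 CPM. Alternatives were DESeq2 1.42.0, limma-voom 3.58.1, other scalings and filters, and each library left out. All 10 genes are described, and of the other lists the genes called or, where none was, the one highest per length. Of marker lists the gene highest in CPM is named, and for likeness the 5 highest correlations are given. The genes and lists were chosen with earlier results of these data known.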

Additional observations from a re-analysis of the deposited data

Results flagged for a closer look

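Among the other pathway genes, Erap1 and H2-Q6 were singled out because every AAV-A2A library was below every AAV-GFP library in the ACSA-2 fraction and above every one in the CD11b fraction. Erap1, the aminopeptidase that trims class I peptides in the endoplasmic reticulum, had 21.3, 14.8 and 39.3 CPM against 11.3, 9.33 and 14.0 CPM in the ACSA-2 fraction, and 30.5, 29.1 and 72.2 CPM against 98.0, 181 and 124 CPM in the CD11b fraction. Its vector effect differed between fractions by 2.74 ± 0.629 (SE) on the log2 scale, which did not pass after adjustment (edgeR adjusted p = 0.0687). H2-Q6, a class Ib heavy chain with close copies whose reads cannot be told apart with certainty, had 1.73, 2.06 and 2.59 CPM against 0.643, 1.04 and 0.13 CPM, then 10, 13.5 and 14.2 CPM against 37.8, 16 and 17.7 CPM. Its difference was 2.74 ± 0.857 (SE, edgeR adjusted p = 0.126). DESeq2 called both differences. Both genes were chosen by these same values, so a wide difference followed from the choice and is no support for an effect. Over all genes the vector groups did not overlap in 19.4% in the ACSA-2 and 22.4% in the CD11b fraction. The share of all genes that met the rule in both fractions was not counted. Groups of 3 libraries are too small for a test of single outlying libraries.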

How the results depend on the processing

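Calls for the 10 genes between vectors were 0 in both fractions under every alternative tried. Over all genes, calls between vectors in the ACSA-2 fraction went from 553 to 1071 with DESeq2, 156 with all 12 libraries in 1 fit and 272 to 448 with a library left out, and in the CD11b fraction from 0 to 798 with DESeq2, 3 without the libraries rich in choroid plexus RNA and 0 to 0 with a library left out. Between fractions, genes called went from 4968 to 8557 in AAV-A2A animals and 3379 to 5224 with a library left out, and of the 10 genes from 3 to 8 with DESeq2, 5 with at least 10 counts in every library, 9 in AAV-A2A animals, 5 with only the 6 AAV-GFP libraries, where Tap1 and H2-D1 were lost and the 4 class II chain genes gained, and 0 to 7 with a library left out. For the interaction, 75 calls became 1552 with DESeq2, 10 with RLE size factors, 0 with upper quartile scaling, 345 with at least 10 counts, 0 without the choroid-rich libraries and 0 to 1286 with a library left out, and 0 to 1 of the 10 genes was called. Leaving out the choroid-rich libraries and adding Ttr as a covariate were chosen after seeing the data. The causes were not tested.

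Directions that turned concerned values that had not passed a test. In CD11b cells the log2 fold change of B2m was -0.07 with upper quartile scaling, -0.01 with at least 10 counts, -0.36 without the choroid-rich libraries and -0.51 with Ttr as a covariate. Without the choroid-rich libraries Nlrc5 was -0.09 and H2-Eb1 -0.01, and with limma-voom H2-Aa was -0.18 and H2-Eb1 -0.22. Ciita between fractions was 1.59 in AAV-A2A animals. For the interaction B2m was -0.03 with DESeq2, RLE and at least 10 counts, -0.02 with limma-voom, -0.22 with upper quartile scaling and -0.38 without the choroid-rich libraries, where H2-Aa was -0.11 and H2-Eb1 -0.06, and with limma-voom these were -0.53 and -0.43. Upper quartile scaling moved the median of all genes from -0.05 to -0.213 in CD11b cells and from -0.0988 to -0.403 for the interaction.

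With a library left out, values crossed zero in the ACSA-2 fraction for H2-D1 (-0.06 to 0.35), B2m (-0.01 to 0.2), Tap1 (-0.39 to 0.01), H2-Aa (-0.03 to 0.99), H2-Ab1 (-0.33 to 0.46), H2-Eb1 (-0.28 to 0.51) and Cd74 (-0.61 to 0.17), in CD11b cells for H2-K1 (-0.05 to 0.7), H2-D1 (-0.07 to 0.89) and B2m (-0.67 to 0.66), and for the interaction for H2-D1 (-0.19 to 0.86), B2m (-0.73 to 0.7), H2-Aa (-0.46 to 0.88) and H2-Eb1 (-0.05 to 0.99). Of all values of the 10 genes under the alternatives, 592 kept their direction and side of the threshold, 42 turned, 27 passed newly and 16 no longer passed. For other listed genes the count took those called between fractions and, in the remaining comparisons, Erap1 and H2-Q6 alone. Of their values 642 kept both, 6 passed newly and 69 no longer passed. The genes named as highest per length between vectors were not followed there in this count. No paired analysis was possible because the groups share no replicate numbers. With 3 libraries per group and the spread of the CD11b fraction, modest changes of these genes were not detectable.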
